A study of Mus musculus with 12 samples.

Results

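The 7 genes described here are the chemokine receptors Ccr1, Ccr2, Cx3cr1, Cxcr4 and Cxcr6 and the atypical receptors Ackr1 and Ackr3. They were chosen by gene symbol, each had 1 transcript cluster (a probe group for 1 transcribed locus) of its own on the array, and they stood among 30702 genes with such a cluster. Of the 7, 6 passed the filter on dim signals that left 22066 genes for testing, and Cxcr6 did not. Affymetrix arrays measured total RNA of vessels from male C57BL/6 mice aged 8 to 10 weeks. The groups were untreated mice (day 0) and mice given Angiotensin II from an implanted osmotic pump for 1, 3 or 7 days (1500 ng per kg of body weight each minute), with 3 arrays each and 12 in all. Angiotensin II is the vasoconstrictor hormone that raises blood pressure. The untreated mice are not described as carrying a pump, so implantation and hormone cannot be told apart. Which artery or vein was taken is not stated in the labels.

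Chemokine receptors are proteins that cross the cell membrane and let leukocytes move along gradients of secreted chemokines, most of them by activating inhibitory G proteins. Atypical receptors bind chemokines without that G protein signal and take them up or carry them, which changes how much ligand is left for the others. In arteries under Angiotensin II, Ccr2 and its ligand Ccl2 are known for bringing monocytes into the wall. Against untreated vessels, Ccr1 rose at days 1, 3 and 7, Ccr2 at days 3 and 7, and Cx3cr1 and Cxcr4 at day 7. The mean of Ccr2 was highest at day 7 and that of Ccr1 at day 3, though neither gene passed between treated days in the main fit. The scavenger Ackr3 was highest at day 1 and close to its untreated level at day 7.

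Promoters are shown for 4 genes: Ccr1 and Ccr2, which both passed the test at day 3 and lie in one receptor gene cluster, and Cxcr4 and Ackr3, which bind the same ligand, Cxcl12, and were highest on different days. Each line gives the 250 bases before the RefSeq start site in build GRCm38.p6, 5' to 3' on the strand of the gene. Capitals mark 3 motifs searched on both strands: the TATA box (TATAAA), the GC box (GGGCGG) and the core site of the myeloid factor PU.1 (GAGGAA).
Ccr1, chr9:123968693-123968942, minus strand: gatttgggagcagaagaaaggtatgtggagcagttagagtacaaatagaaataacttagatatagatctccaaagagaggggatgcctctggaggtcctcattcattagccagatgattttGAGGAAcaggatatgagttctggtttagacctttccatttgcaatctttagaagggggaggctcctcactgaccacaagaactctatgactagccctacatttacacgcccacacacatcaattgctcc
Ccr2, chr9:124101933-124102182, plus strand: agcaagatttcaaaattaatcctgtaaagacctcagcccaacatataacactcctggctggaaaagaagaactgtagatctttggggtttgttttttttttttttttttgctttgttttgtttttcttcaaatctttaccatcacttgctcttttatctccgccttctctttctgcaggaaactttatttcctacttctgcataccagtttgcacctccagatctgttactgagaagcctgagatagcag
Cxcr4, chr1:128592300-128592549, minus strand: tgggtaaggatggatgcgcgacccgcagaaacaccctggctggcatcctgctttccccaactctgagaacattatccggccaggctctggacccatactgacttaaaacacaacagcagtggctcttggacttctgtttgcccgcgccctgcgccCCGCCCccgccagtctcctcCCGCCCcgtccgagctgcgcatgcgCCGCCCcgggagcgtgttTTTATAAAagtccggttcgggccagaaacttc
Ackr3, chr1:90203730-90203979, plus strand: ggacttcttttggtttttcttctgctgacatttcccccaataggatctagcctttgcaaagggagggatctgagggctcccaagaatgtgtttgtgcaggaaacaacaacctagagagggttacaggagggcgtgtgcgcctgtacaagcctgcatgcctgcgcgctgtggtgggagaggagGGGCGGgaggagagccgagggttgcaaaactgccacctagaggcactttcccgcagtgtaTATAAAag
The Cxcr4 promoter held TATAAA starting 30 bases before the start site, overlapped by a match on the other strand, and 3 GC boxes. Ackr3 held TATAAA starting 8 bases before the start site and 1 GC box. Ccr1 held 1 PU.1 core, and Ccr2 held none of the 3 motifs in this window. The same was true of Cx3cr1, Cxcr6 and Ackr1, so 2 of the 7 receptors held a TATA box, 2 a GC box and 1 a PU.1 core. Among 32851 promoters of the same length, 12.4% held a TATA box, 32.7% a GC box and 23.3% a PU.1 core. These matches describe the letters only.

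Signal over background moved with the day of infusion. On each array the negative control median was subtracted from the positive control median. The difference was 2.59 ± 0.05 log2 units in untreated vessels, 2.25 ± 0.29 after 1 day, 1.98 ± 0.14 after 3 days and 1.76 ± 0.49 after 7 days (SD over 3 arrays), and was lowest on day 7 replicate 1 (1.20). For genes as dim as Ccr1 and Cxcr4 (mean signal 5 to 6), the median log2 change at day 7 was 0.25, with quartiles of 0.06 and 0.46. The part of this drift in the results was not tested beyond the covariate fit given below. Within groups, pairs of arrays had a Pearson r of 0.969 to 0.993. The tissue label was checked against defining genes, and all 8 smooth muscle and all 8 endothelial genes exceeded the negative control median on at least 1 array of every day. This check does not tell how much other tissue was present. At day 0 the mean of the adipocyte genes was 11.04 and that of the endothelial genes 9.18.

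**Figure D1:**
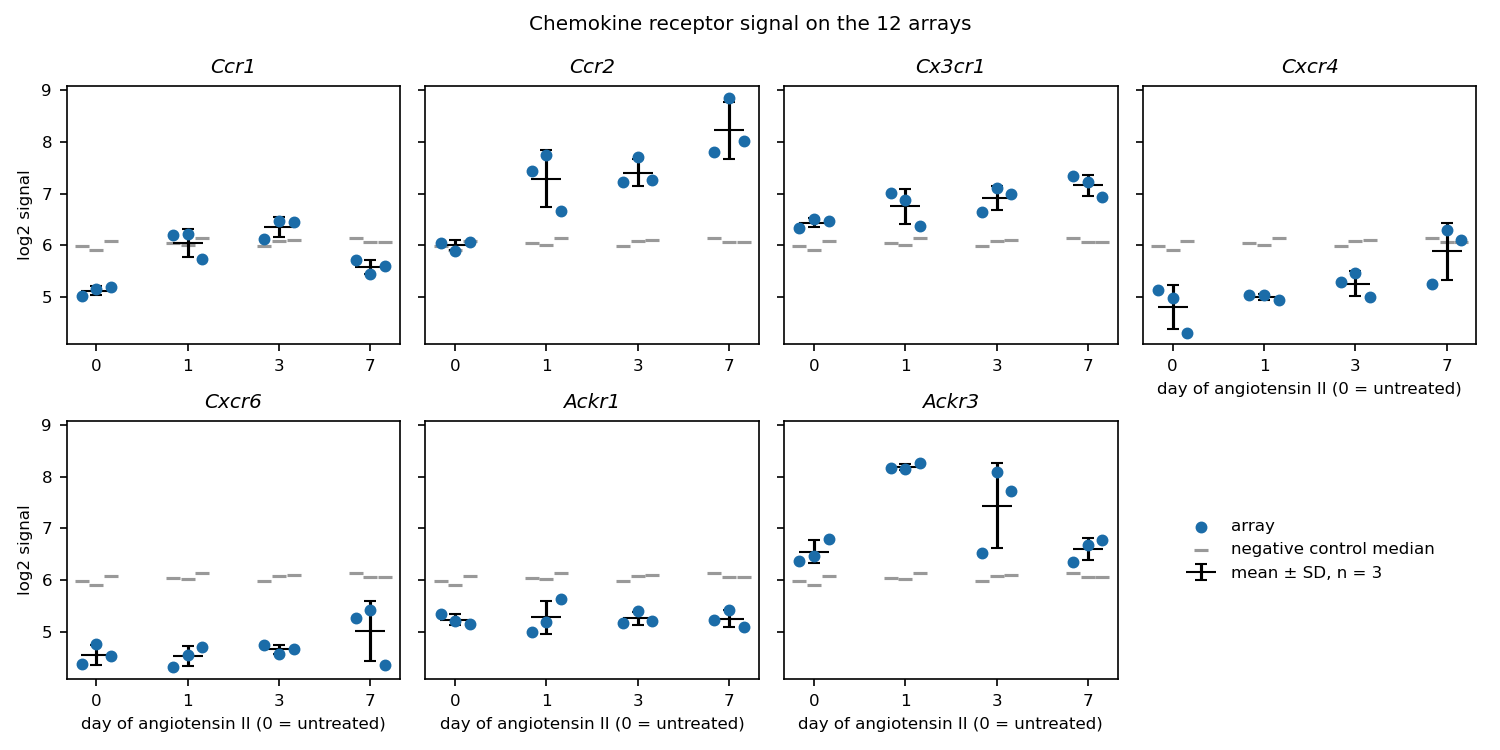
Log2 signal of the 7 receptors on each of the 12 arrays by day of Angiotensin II (day 0 is untreated), with the mean and SD of 3 arrays (black) and the negative control median of each array (grey). Ccr2 stands highest at day 7, Ccr1 at day 3 and Ackr3 at day 1, while Cxcr6 and Ackr1 stay under the negative control median on all 12 arrays.

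Ccr2 is the receptor for Ccl2, Ccl7 and Ccl12 that brings inflammatory monocytes out of the blood. Its log2 signal was 6.05, 5.89 and 6.07 on the day 0 arrays, 7.44, 7.74 and 6.67 at day 1, 7.23, 7.71 and 7.27 at day 3, and 7.81, 8.86 and 8.02 at day 7. All 9 treated arrays lay above the 3 untreated ones. At day 7 Ccr2 was 4.68-fold higher than at day 0, a log2 change of 2.23 ± 0.32 (± SE of the limma estimate here and below, n = 3 arrays per group, adjusted p = 0.00237). At day 3 the log2 change was 1.40 ± 0.32 (adjusted p = 0.0233). At day 1 it was 1.28 ± 0.32 and did not pass (limma adjusted p = 0.0596), although the groups did not overlap. The day 1 value passed with the stricter filter (limma adjusted p = 0.0483) and without day 1 replicate 3 (1.59, 0.0224) or day 7 replicate 2 (0.0356), and was 0.55 with the adipocyte covariate (limma adjusted p = 0.778). In order the levels ran day 0, day 1, day 3 and day 7. Days 1 and 3 differed by less than their spread, with a log2 difference of 0.12 (95% interval -0.59 to 0.83), and the day 7 arrays lay above the day 3 arrays without passing (0.82 ± 0.32, limma adjusted p = 0.318). The day 7 call held in every alternative fit and without each single array (limma adjusted p at most 0.0492). The day 3 call was lost without any one of the untreated arrays and without day 3 replicates 2 or 3 (limma adjusted p up to 0.0821), with the control-feature covariate (log2 change 1.502, limma adjusted p = 0.116) and with the adipocyte covariate (log2 change 0.87, limma adjusted p = 0.3).

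Ccr1, a receptor of myeloid cells for Ccl3, Ccl5, Ccl6 and Ccl9, had another course. Its log2 signal was 5.02, 5.15 and 5.20 at day 0, 6.20, 6.21 and 5.73 at day 1, 6.12, 6.47 and 6.45 at day 3, and 5.71, 5.44 and 5.59 at day 7. Each treated group lay wholly above the untreated arrays, and all 3 day 7 arrays lay below the day 1 and day 3 arrays. The day 3 level was 2.34-fold that of day 0 (log2 change 1.23 ± 0.15, limma adjusted p = 0.00301). The changes at day 1 and day 7 were 0.93 ± 0.15 (limma adjusted p = 0.0154) and 0.46 ± 0.15 (limma adjusted p = 0.0488). At day 7 against day 3 the log2 change was -0.77 ± 0.15 and missed the threshold (limma adjusted p = 0.0801), but it passed after quantile normalization (-0.90, limma adjusted p = 0.0178), with centred arrays (-0.86, 0.0303), with the control-feature covariate (-0.85, 0.0288) and without day 1 replicate 3 (limma adjusted p = 0.0485). At day 7 against day 1 it was -0.47 ± 0.15 (limma adjusted p = 0.0809) and passed under both scalings (-0.70 with 0.0182 after quantile normalization, -0.71 with 0.0213 with centred arrays). On every day 0 and day 7 array the gene lay under the negative control median, so these sizes are approximate. It passed the filter through its 9 treated arrays.

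The 3 Ccr1 calls differed in firmness. The day 3 call held without each single array, and was lost only with the adipocyte covariate (limma adjusted p = 0.0618). The day 1 call was lost without any untreated array and without day 1 replicates 1 or 2 (limma adjusted p up to 0.0733), in the fit on the 6 arrays alone (0.0633) and with the adipocyte covariate (0.453). The day 7 call was lost in 6 of 10 alternative fits and in 9 of 12 fits without 1 array. With arrays centred on their medians its value was 0.18 (limma adjusted p = 0.315). With the values as deposited it was 0.46, where genes of similar brightness had a median change of 0.25 and an upper quartile of 0.46.

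Cx3cr1 is the fractalkine receptor of patrolling monocytes and resident macrophages. Arrays gave it a log2 signal of 6.34, 6.51 and 6.46 at day 0, 7.00, 6.87 and 6.38 at day 1, 6.65, 7.11 and 6.98 at day 3, and 7.33, 7.22 and 6.93 at day 7. The day 7 and day 3 arrays lay above all untreated arrays, and day 1 replicate 3 lay within the untreated range. At day 7 the log2 change was 0.73 ± 0.18, or 1.65-fold (limma adjusted p = 0.0214). The day 3 change of 0.48 ± 0.18 (limma adjusted p = 0.12) and the day 1 change of 0.31 ± 0.18 (limma adjusted p = 0.465) did not pass. The means stood in the order of the days, but neighbouring treated days overlapped. Adding the control-feature difference to the model gave a day 7 change of 0.29 (limma adjusted p = 0.551), and the call was also lost without day 0 replicates 1 or 3 and without day 7 replicates 1 or 2 (limma adjusted p up to 0.0677).

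Cxcr4 is the signalling receptor for Cxcl12, carried by most leukocytes and by sprouting endothelium. Arrays gave it a log2 signal of 5.12, 4.97 and 4.31 at day 0, 5.03, 5.04 and 4.93 at day 1, 5.29, 5.47 and 4.99 at day 3, and 5.25, 6.30 and 6.09 at day 7. Only day 7 replicates 2 and 3 exceeded the negative control median, so the size is approximate. The day 7 arrays lay above all untreated arrays, and the log2 change was 1.08 ± 0.28 (limma adjusted p = 0.0258). It was 0.45 ± 0.28 at day 3 (limma adjusted p = 0.317) and 0.20 ± 0.28 at day 1 (limma adjusted p = 0.87), neither of which passed. Day 0 replicate 3 and day 7 replicate 1 were the low arrays of their groups. The day 7 call was lost after quantile normalization (0.80, limma adjusted p = 0.102), with centred arrays (0.81, limma adjusted p = 0.0772), with the adipocyte covariate (1.01, limma adjusted p = 0.058) and in the fit on the 6 arrays alone (limma adjusted p = 0.0921). It was also lost without day 0 replicates 2 or 3 and without day 7 replicate 2 (limma adjusted p up to 0.078). With the control-feature covariate the value was 1.75 and passed. Cxcr4 passed the filter with 4 arrays, all of days 3 and 7.

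Cxcr6, the Cxcl16 receptor of activated T cells, lay between 4.32 and 5.42 on the log2 scale and under the negative control median on all 12 arrays. Its signal was 4.36, 4.75 and 4.53 at day 0, 4.32, 4.55 and 4.70 at day 1, 4.74, 4.56 and 4.67 at day 3, and 5.26, 5.42 and 4.35 at day 7. Day 7 replicates 1 and 2 were the 2 highest arrays, and day 7 replicate 3 was near the lowest. No test was made because only 2 arrays reached the filter level of 5.25.

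Ackr1, which in mice binds many inflammatory chemokines on red cells and venular endothelium, was under the negative control median on all 12 arrays as well. Its log2 signal was 5.35, 5.20 and 5.15 at day 0, 4.996, 5.19 and 5.63 at day 1, 5.16, 5.40 and 5.21 at day 3, and 5.23, 5.42 and 5.09 at day 7. The groups overlapped in every comparison. The log2 change against day 0 was 0.04 (95% interval -0.31 to 0.40) at day 1, 0.02 (-0.33 to 0.38) at day 3 and 0.01 (-0.34 to 0.37) at day 7. A change in so dim a gene may not have been detectable here.

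Ackr3 is the scavenger that takes up Cxcl12 and, in mice, adrenomedullin. Its log2 signal was 6.38, 6.47 and 6.80 at day 0, 8.17, 8.14 and 8.27 at day 1, 6.52, 8.09 and 7.72 at day 3, and 6.36, 6.67 and 6.78 at day 7. The 3 day 1 arrays lay close together and above every other array of the study. Day 3 was split, with replicate 1 inside the untreated range and replicates 2 and 3 above it, and all day 7 arrays lay at or under the highest untreated array. At day 1 the gene was 3.13-fold higher than at day 0 (log2 change 1.64 ± 0.33, limma adjusted p = 0.0313). The day 3 change of 0.90 ± 0.33 did not pass (limma adjusted p = 0.117), but without day 3 replicate 1 it was 1.36 (limma adjusted p = 0.0095). At day 7 the change was 0.05 (95% interval -0.70 to 0.80). Quantile normalization (-0.12) and centred arrays (-0.22) turned the sign of that day 7 value.

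The fall of Ackr3 after day 1 was also tested. The comparison of day 7 with day 1 was added after these values were seen, and gave a log2 change of -1.59 ± 0.33 (limma adjusted p = 0.0356), with all day 7 arrays below all day 1 arrays. In order the levels ran day 0, day 7, day 3 and day 1, and days 0 and 7 did not differ beyond their spread. Day 3 against day 1 (-0.75 ± 0.33, limma adjusted p = 0.604) and day 7 against day 3 (-0.84 ± 0.33, limma adjusted p = 0.329) did not pass. The day 1 rise was lost without any untreated or any day 1 array (limma adjusted p up to 0.115) and with the adipocyte covariate (1.61, limma adjusted p = 0.511). The fall to day 7 was lost in 8 of 12 fits without 1 array (limma adjusted p up to 0.114), in the fit on the 6 arrays alone (0.0903), with the control-feature covariate (0.14) and with the adipocyte covariate (0.0607), while its value ran from -1.83 to -1.53 over the alternative fits.

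**Figure D2:**
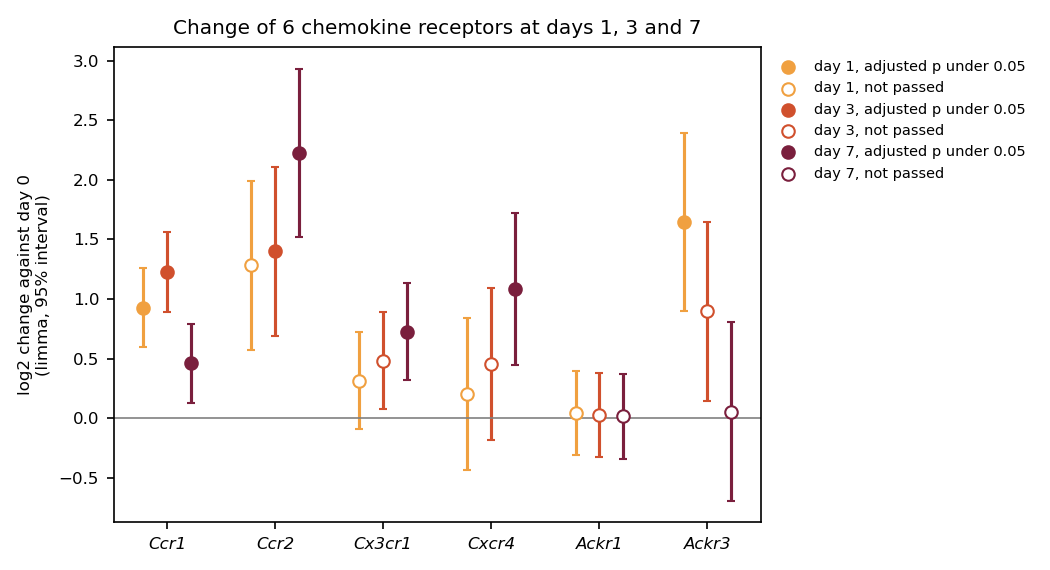
Log2 change against day 0 of the 6 receptors tested, at days 1, 3 and 7 (limma estimate with its 95% interval; filled points passed at adjusted p under 0.05). The Ackr3 estimates run from 1.64 at day 1 to 0.05 at day 7, those of Ccr2 from 1.28 to 2.23.

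Counted together, 2 of the 6 receptors tested rose at day 1 (Ccr1 and Ackr3) and 0 fell, where 1.99% of all 22066 genes rose in limma and 1.63% fell. At day 3, 2 rose (Ccr1 and Ccr2) and 0 fell, against 4.61% and 7.14% of all genes. At day 7, 4 rose (Ccr1, Ccr2, Cx3cr1 and Cxcr4) and 0 fell, against 12.1% and 13.2% of all genes. These counts describe receptors that passed a filter on signal, which favours a gene that is bright in some group. Arrays without overlap were more common: 3 receptors lay wholly above day 0 at day 1 (11.8% of all genes, with 11.5% wholly below), 3 at day 3 (23.3%, with 21.4% below) and 4 at day 7 (26.6%, with 20.5% below). Between treated days, 0 receptors passed in limma for day 3 against day 1 and 0% of all genes passed in each direction (at an unadjusted p under 0.05, 0 receptors and 1776 of 22066 genes). There Ackr3 lay wholly below (6.78% of all genes, with 7.04% above). For day 7 against day 3, 0 passed, where 0.113% of all genes rose and 0.154% fell (at an unadjusted p under 0.05, the 3 receptors Ackr3, Ccr1 and Ccr2 and 2853 of 22066 genes), while Ccr2 lay wholly above (7.04% of all genes) and Ccr1 wholly below (7.97%). For day 7 against day 1, Ackr3 fell and 0 rose, where 2.91% of all genes fell and 1.88% rose, and 2 receptors lay wholly above (14.1% of all genes) and 2 wholly below (11.3%). In that comparison Ccr2 (0.94 ± 0.32, limma adjusted p = 0.091) and Cxcr4 (0.88 ± 0.28, limma adjusted p = 0.0844) were higher on every day 7 array than on every day 1 array without passing. With the adipocyte covariate Ccr2 passed there (1.46, limma adjusted p = 0.0341). The comparisons with day 0 share their untreated arrays.

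Monocyte and macrophage marker genes were higher beside the myeloid receptors. Of 12 such genes, 7 rose at day 1, 9 at day 3 and 10 at day 7, where 1.99%, 4.61% and 12.1% of all genes tested rose. None was under the negative control median on all 3 arrays of a treated day. Their mean log2 signal ranged from 7.37 to 7.76 on the day 0 arrays, 8.83 to 9.40 after 1 day, 8.84 to 9.49 after 3 days and 8.59 to 9.96 after 7 days. Among genes chosen after their values were seen, the complement gene C1qb changed by 1.71 ± 0.37, 1.83 ± 0.37 and 1.92 ± 0.37 at days 1, 3 and 7 and passed at each, whereas Mrc1, the mannose receptor, changed by 3.50 ± 0.54, 3.54 ± 0.54 and 1.64 ± 0.54 and did not pass at day 7 (limma adjusted p = 0.051). In whole tissue, more cells of a type and more RNA per cell cannot be told apart, and the part of macrophage content in the receptor changes was not tested.

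Markers of other cells moved too. None of the 8 T cell genes or 5 B cell genes measured exceeded the negative control median on any array. Of 8 neutrophil genes, 2 of the 6 tested rose at day 3 and 2 at day 7. Of 7 natural killer genes, 3 were tested and 2 rose at day 7. Of all genes tested, 1.99% rose at day 1, 4.61% at day 3 and 12.1% at day 7, while 7.14% fell at day 3 and 13.2% at day 7. Among the natural killer genes only Klrd1 exceeded the negative control median, at days 3 and 7. Endothelial genes, whose cells are known to carry Ackr3, had a mean log2 signal of 8.996 to 9.48 at day 0, 9.42 to 9.92 after 1 day, 8.60 to 9.496 after 3 days and 8.16 to 8.82 after 7 days. None of the 8 rose at any day, and 1 fell at day 3 and 2 at day 7. The 6 genes of venular or activated endothelium had means of 7.30 ± 0.07, 7.76 ± 0.20, 7.54 ± 0.21 and 7.10 ± 0.30 on days 0, 1, 3 and 7. Day 1 was highest as for Ackr3, and 0 passed in limma at any day. By gene, Selp, Sele, Vcam1 and Icam1 were highest at day 1. Nr2f2 hardly differed between days 0 and 1 (8.43 and 8.48), and Ephb4 was highest at day 0 (7.21, then 7.14, 7.06 and 7.12). The 4 lymphatic endothelial genes had means of 5.91 ± 0.02, 6.42 ± 0.12, 6.50 ± 0.04 and 6.18 ± 0.14 in that order, and 1 rose at day 1 and 2 at day 3. That mean followed Pdpn most (7.19, 8.79, 8.93 and 8.21), with Flt4 at 5.80, 6.13, 6.09 and 5.75. Prox1 (5.12, 5.14, 5.29 and 5.23) and Reln (5.54, 5.61, 5.69 and 5.55) lay under the negative control median on every array. Adipocyte genes, whose mean signal served as the adipocyte covariate, had a mean of 11.04 ± 0.15 in untreated vessels, 9.94 ± 0.77 after 1 day, 10.23 ± 0.03 after 3 days and 10.72 ± 0.31 after 7 days (SD over 3 arrays). Smooth muscle genes had a mean of 14.41 ± 0.08 in untreated vessels, 13.09 ± 0.85 after 1 day, 12.27 ± 0.60 after 3 days and 10.43 ± 1.41 after 7 days, and 7 of 8 fell at day 7. Fibroblast genes averaged 13.33 ± 0.57, 14.01 ± 0.23, 14.15 ± 0.14 and 14.93 ± 0.42 in the same order of days, and 3 of 6 rose at day 7. All 4 heart muscle genes tested rose at day 7, as did 4 of the 5 skeletal muscle genes tested. The part of these cell types in the receptor changes was not tested beyond the covariate fit. Among the 8 adipocyte genes behind that covariate, Ucp1 moved most between days 0 and 1, from a mean of 11.45 to 6.00. Adipoq stood at 10.10 and 10.03 and Lep at 5.65 and 6.36, while the rest had lower means at day 1. The covariate thus leans strongly on 1 gene at day 1, where 0 genes of any kind passed in that fit.

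**Figure D3:**
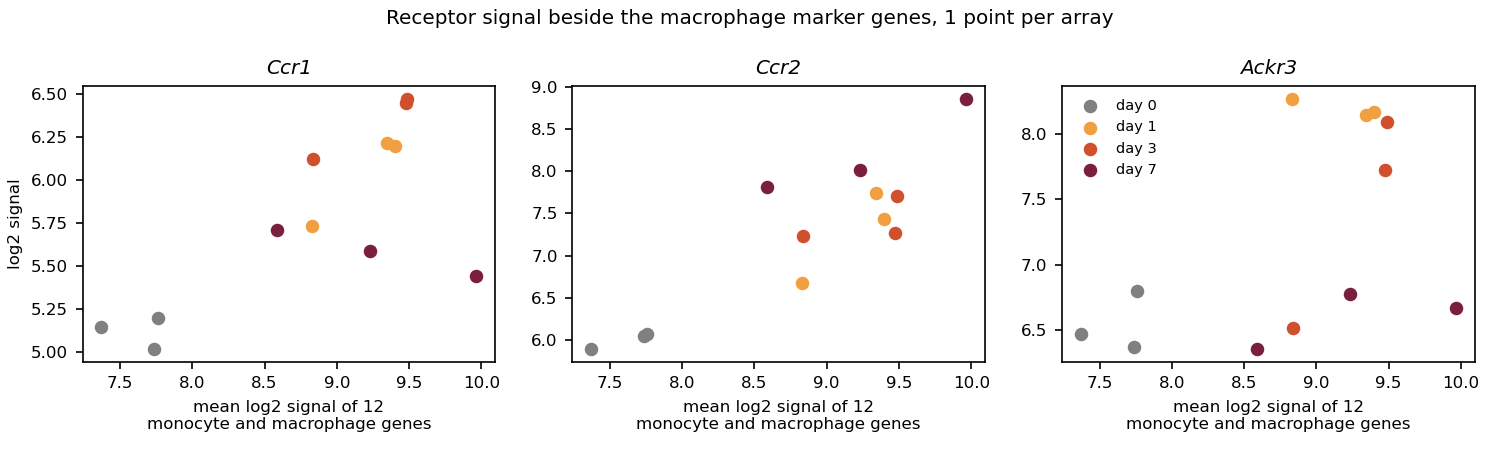
Log2 signal of Ccr1, Ccr2 and Ackr3 on each array against the mean log2 signal of 12 monocyte and macrophage genes on that array, coloured by day. Ccr2 is highest on the array with the highest macrophage mean (9.96, day 7 replicate 2), where Ccr1 is at 5.44 and Ackr3 at 6.67.

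Genes that encode ligands of these receptors were also followed. Of 16, 14 were tested, 5 rose at day 1, 5 at day 3 and 6 at day 7, and none fell. Among all genes tested, 1.99%, 4.61% and 12.1% rose on these days, and 1.63%, 7.14% and 13.2% fell. For Ccr2, Ccl7 rose by 2.48 ± 0.40 at day 1 and 1.62 ± 0.40 at day 3, and at day 7 stood at 0.82 ± 0.40 without passing (limma adjusted p = 0.146). Ccl2 ran alike, with 1.99 ± 0.35, 1.52 ± 0.35 and, not passing, 0.63 ± 0.35 (limma adjusted p = 0.194). Both estimates were lowest at day 7, the day on which Ccr2 was highest, and Ccl7 fell at day 7 against day 1 (-1.66 ± 0.40, limma adjusted p = 0.0493). Ccl12, another Ccr2 ligand of the mouse, passed at each day with 1.48 ± 0.25, 1.79 ± 0.25 and 1.76 ± 0.25.

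The 4 Ccr1 ligands differed in course. Ccl6 and Ccl9 had their highest estimates at day 3, and Ccl3 and Ccl5 at day 7. Ccl6 rose by 2.20 ± 0.33 at day 1, 3.19 ± 0.33 at day 3 and 1.505 ± 0.33 at day 7. Ccl9 rose by 1.82 ± 0.41, 3.14 ± 0.41 and 1.62 ± 0.41. In neither ligand did day 3 against day 1 pass (limma adjusted p = 0.604 for both). Ccl3 changed by 0.05 ± 0.10, 0.20 ± 0.10 and 0.50 ± 0.10 at days 1, 3 and 7 and passed at day 7 (limma adjusted p = 0.00749). Ccl5 changed by -0.16 ± 0.15, 0.05 ± 0.15 and 0.52 ± 0.15 and also passed at day 7 (limma adjusted p = 0.035). Neither exceeded the negative control median on any array.

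Cxcl12 is the ligand that Cxcr4 and Ackr3 share. Its log2 signal was 8.17 ± 0.19 in untreated vessels, 8.48 ± 0.35 after 1 day, 8.62 ± 0.26 after 3 days and 8.17 ± 0.39 after 7 days (SD over 3 arrays). Its log2 change at day 1 was 0.31 (95% interval -0.21 to 0.84) and at day 7 -0.00 (-0.53 to 0.52), and it passed at no day. Adm, the adrenomedullin gene, changed by -1.29 ± 0.43 at day 7 and narrowly missed the threshold (limma adjusted p = 0.0518). Cxcl16, the ligand of Cxcr6, rose at day 7 (1.05 ± 0.25, limma adjusted p = 0.0182). The fractalkine gene Cx3cl1 was under the negative control median on all 12 arrays and passed at no day.

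**Figure D4:**
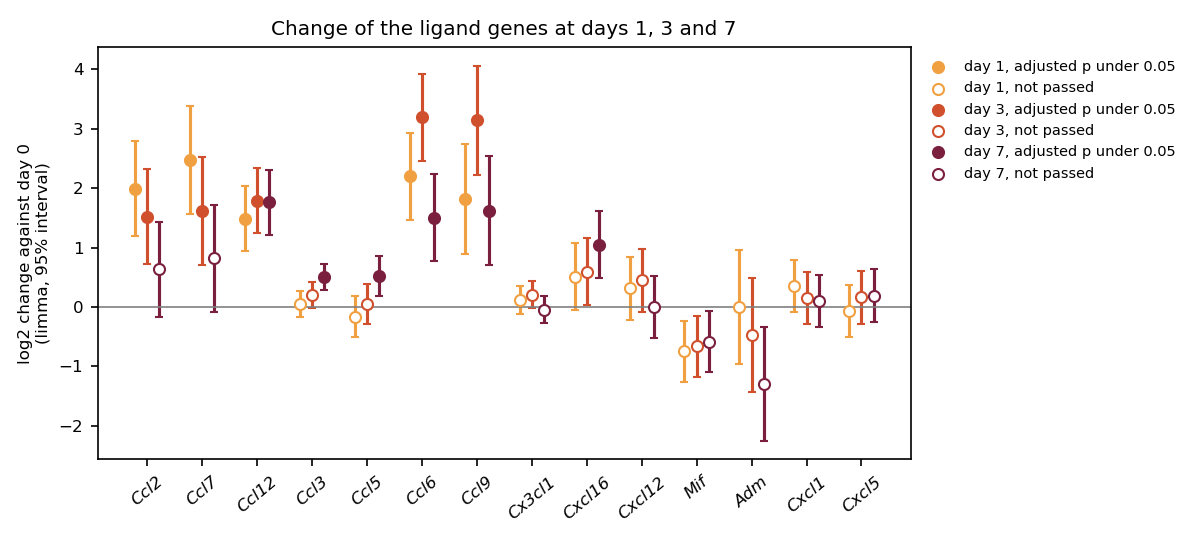
Log2 change against day 0 of the 14 ligand genes tested, at days 1, 3 and 7 (limma estimate with its 95% interval; filled points passed). Ccl2 and Ccl7 have their highest estimates at day 1 and Ccl6 and Ccl9 at day 3.

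The rest of the receptor family was mostly too dim to test. Of 18 other receptors with a transcript cluster of their own, 6 passed the filter. Cmklr1, the chemerin receptor of macrophages, rose at day 3 (0.41 ± 0.11, limma adjusted p = 0.0368), and Ccr9, a receptor of gut-homing T cells, rose at day 7 (0.48 ± 0.14, limma adjusted p = 0.0392). Ccr9 exceeded the negative control median on no array, so its size is approximate, and equally dim genes had an upper quartile of 0.46 at day 7. Ccr7, Ccr10, Cxcr2 and the scavenger Ackr2 passed at no day. In RefSeq the chromosome 9 genes run Ccr9, Cxcr6, Xcr1, Ccr1, Ccr1l1, Ccr3 and Ccr2 in order among the receptors described here. Of these 7, Ccr1, Ccr2 and Ccr9 were bright enough to be tested. These genes rose at day 7, when 12.1% of all genes tested rose and 13.2% fell. Ccr1 reached the filter through its treated arrays, and the genes too dim to test give no result.

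Genes that act below the receptors were higher in part. Of 17 signalling and desensitisation genes tested, 3 rose at day 1, 7 at day 3 and 8 at day 7, and 2 fell at day 7. Among all genes tested, 1.99%, 4.61% and 12.1% rose on these days, and 13.2% fell at day 7. Dock2, the exchange factor that drives leukocyte movement, rose by 0.84 ± 0.17, 0.82 ± 0.17 and 1.12 ± 0.17 at days 1, 3 and 7. Vav1, another gene of this list, rose by 0.43 ± 0.10, 0.56 ± 0.10 and 0.70 ± 0.10, while under the negative control median on all 12 arrays. The receptor kinase gene Grk5 rose by 0.98 ± 0.22 at day 1 and 0.99 ± 0.22 at day 3. Gnai2, which encodes the inhibitory G protein subunit of most of these receptors in many cell types, changed by -1.45 ± 0.33 at day 7 (limma adjusted p = 0.0144), and Gnai3 by -0.57 ± 0.17 (limma adjusted p = 0.0364).

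The patterns most like each receptor were ranked by Pearson r of log2 signal over the 12 arrays, among 14943 tested genes left after symbols of predicted or clone-like genes, and genes with no spread, were set aside. The arrays share days, tissue and depth of signal, so r is a description. For Ccr2 they were Vav1 (0.97), the myeloid surface protein gene Ly86 (0.97) and Otulinl (0.96). For Ccr1 they were Ncapd2 (0.97), a condensin subunit, Tacc3 (0.96), a spindle protein, and Zgrf1 (0.96). For Ackr3 they were Gdf6 (0.93), a bone morphogenetic protein, Klhl6 (0.90) and Skp2 (0.90), a ubiquitin ligase subunit of the cell cycle. Cxcr4 was nearest to Hhipl1 (0.91), Zbp1 (0.90) and Epsti1 (0.90), the last 2 known as interferon-induced. Cx3cr1 was nearest to the vomeronasal receptor pseudogene Vmn2r-ps19 (0.96), the meiosis gene Sycp1 (0.96) and the defensin gene Defb46 (0.95), genes not known for vessels. The best r for Ackr1 was 0.83 (Magi3). Of these like genes, Vav1, Skp2, Hhipl1 and Sycp1 exceeded the negative control median on no array. Among the receptors themselves, r was 0.86 between Ccr2 and Cx3cr1, 0.78 between Ccr2 and Cxcr4, 0.70 between Ccr1 and Ackr3 and 0.16 between Ccr2 and Ackr3.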

How the data were processed

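The deposited table holds log2 signals of 72688 features, which the authors made in Expression Console according to the submitters' processing notes. Its version, background correction and normalization are not stated. A different Affymetrix mouse array is named by the labels, so identifiers and their annotation were followed. Values were used as deposited. Of 65956 transcript clusters, 31258 had 1 gene after old spellings were updated (Cxcr7 to Ackr3), 1492 several and 33206 none. The cluster with the highest mean stood for a gene. Genes with at least 3 of 12 arrays at the 40th percentile (5.25) were tested with limma 3.58.1 in R 4.3.3, 1 mean per day, all 12 arrays, Benjamini-Hochberg adjusted p under 0.05. Changes of 1 log2 unit simulated among 22066 genes were recovered at 64, 62 and 72% for days 1, 3 and 7. Arrays are described as biological replicates. The 7 receptors and the lists were chosen with earlier results of these data known. All 7 receptors were named, with up to 4 passing members per list and the 3 most alike genes. Protein sequences were not used here. Alternatives were quantile normalization, centring, other filters, the mean of a gene's clusters, variance trend, covariates for control features and adipocyte genes, a replicate block, the 6 arrays compared, and leaving out each array. Over all days 7 of 18 same-numbered pairs of arrays had deviations with r over 0.1. For days 1 and 7 all 3 did (0.61, 0.36 and 0.66), but same-numbered pairs of other days ran down to -0.51. The labels state no pairing of animals across days. The main fit therefore used none, and the block was fitted only as an alternative.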

Additional observations from a re-analysis of the deposited data

How the results depend on the processing

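Counts of receptors and genes past the threshold depended on the processing, while the day 7 rise of Ccr2 passed in all 10 alternative fits (log2 change 1.95 to 2.36) and without each array. After quantile normalization 433 genes passed at day 1, 2 receptors at day 7, 1 receptor and 109 genes for day 7 against day 3, and 2 receptors and 2076 genes for day 7 against day 1. With centred arrays the numbers were 436 genes at day 1, 2 receptors at day 7, 1 receptor for day 7 against day 3, and 2 receptors and 2183 genes for day 7 against day 1. These scalings moved the median of all genes at day 7 by -0.20 and -0.27, and the share of calls that were higher to 23.3% and 20.7% at day 7, against 47.9% as reported. That share was 61.7% and 66.3% at day 1 (54.9% as reported), 30% and 23% at day 3 (39.3%), 32.1% and 30.3% for day 7 against day 3 (42.4%) and 19.2% and 22.6% for day 7 against day 1 (39.2%). With the control-feature covariate 1 receptor and 464 genes passed at day 3, 2 receptors and 771 genes at day 7, 1 receptor and 378 genes for day 7 against day 3, and 0 receptors and 363 genes for day 7 against day 1. With the adipocyte covariate 0 receptors and 0 genes passed at day 1, 0 and 60 at day 3, 2 and 3277 at day 7, 25 genes for day 7 against day 3 and 2058 for day 7 against day 1. On the 6 arrays alone 1 receptor and 209 genes passed at day 1, 4523 genes at day 3, 2719 at day 7, 1 gene for day 7 against day 3, and 0 receptors and 2 genes for day 7 against day 1. With the replicate number as a block, 3 receptors passed at day 1 (Ccr2 gained, limma adjusted p = 0.0442), 2 at day 3 and 3 at day 7 (Ccr1 lost, limma adjusted p = 0.0709), and the block changed no other call of a receptor. Same-numbered arrays correlated between -0.51 and 0.66 in their deviations. For day 7 against day 1 the block left the Ackr3 call in place (limma adjusted p = 0.0304). The labels do not state that the numbers pair animals, so this fit is only 1 more alternative. Without each array in turn, 0 to 3 receptors and 101 to 1105 genes passed at day 1, 1 to 3 and 702 to 3497 at day 3, 1 to 4 and 2837 to 7471 at day 7, 0 and 0 to 1 for day 3 against day 1, 0 to 1 and 10 to 272 for day 7 against day 3, and 0 to 1 and 43 to 3779 for day 7 against day 1. Values near 0 changed sign. Ackr1 became -0.0010, -0.16 and -0.27 at days 1, 3 and 7 after quantile normalization, -0.16 and -0.26 at days 3 and 7 with centred arrays, and 0.048, 0.044 and 0.091 for day 3 against day 1, day 7 against day 3 and day 7 against day 1 with the control-feature covariate. Ackr3 at day 7 became -0.12 and -0.22 under the 2 scalings, Ccr2 for day 3 against day 1 became -0.029 with centred arrays, and Cx3cr1 and Cxcr4 at day 1 became -0.042 and -0.037 with the adipocyte covariate. Without each array, Cxcr4 at day 1 ran from -0.046 to 0.36, Ackr3 at day 7 from -0.034 to 0.18, Ccr2 and Cx3cr1 for day 3 against day 1 from -0.19 to 0.35 and -0.020 to 0.30. Ackr1 ran from -0.14 to 0.18, -0.047 to 0.082 and -0.074 to 0.091 at days 1, 3 and 7, from -0.16 to 0.16 for day 3 against day 1, -0.098 to 0.067 for day 7 against day 3 and -0.17 to 0.15 for day 7 against day 1. The causes were not tested. Dim signals limit Cxcr4, Cxcr6 and Ackr1 most, and 3 arrays per day limit every test.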

Other observations

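Day 1 replicate 3 had the lowest Ccr1 (5.73), Ccr2 (6.67) and Cx3cr1 (6.38) of the 3 day 1 arrays but the highest Ackr3 (8.27). The same array had the lowest macrophage mean of its day (8.83, against 9.40 and 9.34) and the highest smooth muscle mean (14.01, against 12.33 and 12.94) and adipocyte mean (10.70, against 9.16 and 9.97). Without it the Ccr2 change at day 1 was 1.59 and passed (limma adjusted p = 0.0224). Day 3 replicate 1 had the lowest Ccr1, Ccr2, Cx3cr1 and Ackr3 of its day, with the lowest macrophage (8.84) and endothelial (8.60) means. Day 7 replicate 2 had the highest Ccr2 and Cxcr4 of its day and the lowest Ccr1 (5.44), with the highest macrophage mean (9.96) and the lowest smooth muscle mean (9.04). These are values of single arrays and were not tested.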
